A study of Mus musculus with 15 samples.

Results

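The 57 genes described here carry out the mechanical part of cell division: entry into mitosis, assembly of the spindle and kinetochore, separation of the chromosomes and cytokinesis. They were chosen by gene symbol as a list of mitosis, kinetochore and cytokinesis genes, and all 57 were found among the 55536 genes of the gene count table that matched the GENCODE M21 annotation of the mouse genome. RNA was sequenced from purified CD8+ T cells of OT-I transgenic mice, whose T cells carry a single receptor for the ovalbumin peptide SIINFEKL, and the strain label was OT-1 Tg C57BL/6J for all 15 libraries. For the 5 Naive libraries the cells were taken directly from OT-I mice, with no transfer. For the 5 Ag libraries, OT-I cells were transferred into C57BL6/J mice, which were given the peptide with a control rat IgG. For the 5 Ag+Costim libraries the recipients were given the peptide with agonist antibodies to OX40 and 41BB, the costimulatory receptors also called CD134 and CD137. Cells of spleen and lymph nodes were taken, in the transferred groups on day 4 by the labels (the study's methods give a slightly shorter time), while the labels give no day for the Naive cells. The study's methods give the OT-I donors as Rag1-/- or Rag2-/- and the sort as CD8+ CD45.1+ cells with the OT-I receptor chains. By its design this sort leaves out the host's own T cells in the transferred groups, but whether any remained was not tested. The Naive cells had never been in a host. The question was how antigen alone, and costimulation on top of it, altered the RNA of these cells.

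Mitosis genes are transcribed late in the cell cycle and are nearly silent in resting cells, so their RNA marks cells that are dividing. In quiescent cells the DREAM complex holds them off through promoter elements named CDE and CHR. In cycling cells the factors B-Myb, the product of Mybl2, and FoxM1 bind through the same MuvB core and switch them on. A naive CD8+ T cell is quiescent, and an antigen-stimulated one divides repeatedly for several days.

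Total counts per library ran from 4865952 in Ag 3 to 25280667 in Naive 3, so a member at 10 CPM (a gene's counts per 1000000 counts of its library) rested on about 49 to 253 counts. No member was at 0 in any library. Some libraries stood apart. In Ag 3, 16.9% of the sequenced reads were counted, against 37.4% to 53.6% in the other libraries, and 6 erythroid markers summed to 667 CPM, against 3.18 to 92.7 CPM elsewhere. The 6 B cell markers summed to 158, 357 and 187 CPM in Ag 1, Ag 3 and Ag 4, against 13.1 to 30.9 CPM in the other libraries. In Naive 5, 6 myeloid markers summed to 1003 CPM, against 13.7 to 165 CPM in the other libraries, and S100a8 and S100a9 made up 429 and 403 CPM of it. CD4 T cell markers summed to 1.04 to 22.5 CPM and NK cell markers to 29.5 to 99.1 CPM. The 7 CD8 T cell markers were above 0 in every library and summed to 4406 to 9131 CPM. The recorded input amount, whose unit is not stated, was 1.4 in Ag 2, 1.8 in Ag 5, 7 in Naive 2, 9.4 in Ag 3 and 10 in every other library. Lane 2 held every Ag library with Ag+Costim 1 to 3, and lane 3 held every Naive library with Ag+Costim 4 and 5.

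Added over the 57 genes, expression was uniformly high after antigen with costimulation, split into 2 levels after antigen alone, and low in Naive cells apart from Naive 5. The sum was 2144, 5060.3, 1560.1, 1500.3 and 11305 CPM in Naive 1 to 5. It was 3793, 13727, 10745, 3603 and 12773 CPM in Ag 1 to 5, and 14842, 14535, 13684, 15793 and 15636 CPM in Ag+Costim 1 to 5. Ag 2, Ag 3 and Ag 5 were nearest to the Ag+Costim libraries, whereas Ag 1 and Ag 4 lay between Naive 1 and Naive 2, and Naive 5 exceeded Ag 3. These libraries went against the order of their groups. The groups were kept as labelled, and whether libraries had been exchanged was not tested. The Naive mean ± SD was 4314 ± 4173 CPM, the Ag mean 8928 ± 4895 CPM and the Ag+Costim mean 14898 ± 859 CPM (n = 5 each). In bulk RNA, fewer dividing cells and less of each RNA per dividing cell cannot be told apart.

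The order of the libraries was shared by almost the whole list. Within Naive, Naive 5 was the highest library for 55 of the 57 genes and Naive 2 was among the top 2 for 57. Within Ag, the highest library was Ag 2 for 27 genes and Ag 5 for 23, and the lowest was Ag 4 for 40 and Ag 1 for 16. Across the genes, the coefficient of variation (SD over mean) of CPM had a median of 124% in Naive and 63.8% in Ag, but 7.43% in Ag+Costim. It exceeded 50% for 54 genes in Naive, 50 genes in Ag and 0 genes in Ag+Costim. The CD8 T cell markers moved the opposite way to the list. They summed to 8538 and 8348 CPM in Ag 1 and Ag 4 and to 7443 to 9131 CPM in Naive 1 to 4, the libraries with low mitosis sums, but to 4406 to 6153 CPM in Naive 5, Ag 2, Ag 3, Ag 5 and Ag+Costim. B cell markers were high in Ag 1 and Ag 4 but highest in Ag 3, which had a high mitosis sum, and myeloid markers were high in Naive 5 alone. The part of other cells in the mitosis values was not tested. The low input amounts fell on Ag 2 and Ag 5, both at the high Ag level, but not on Ag 3, and the part of input amount in the split was not tested.

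A list of 34 DNA replication genes, which act earlier in the same cycle, showed the same split of libraries. Their sum was 1666 to 8686 CPM in the Naive libraries, 2282 to 10136 in Ag and 10530.1 to 12982 in Ag+Costim. The ratio of the mitosis sum to the replication sum was 1.02, 1.19, 0.837, 0.901 and 1.30 in Naive 1 to 5. It was 1.65, 1.36, 1.31, 1.58 and 1.26 in Ag 1 to 5, and 1.41, 1.35, 1.29, 1.22 and 1.30 in Ag+Costim 1 to 5. Ag 1 and Ag 4, the Ag libraries with the lowest sums, had the highest ratios of all 15 libraries. Their mitosis sums were 1.77 and 1.68 times that of Naive 1, whose ratio was lower. Smc4 alone supplied 874 and 823 CPM of the mitosis sums in Ag 1 and Ag 4, and 595 CPM in Naive 1. In Ag 2, Ag 3 and Ag 5 it supplied 487, 357 and 231 CPM. Ratios without Smc4 were not computed, so whether the other members share the high ratios of Ag 1 and Ag 4 was not tested.

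**Figure D1:**
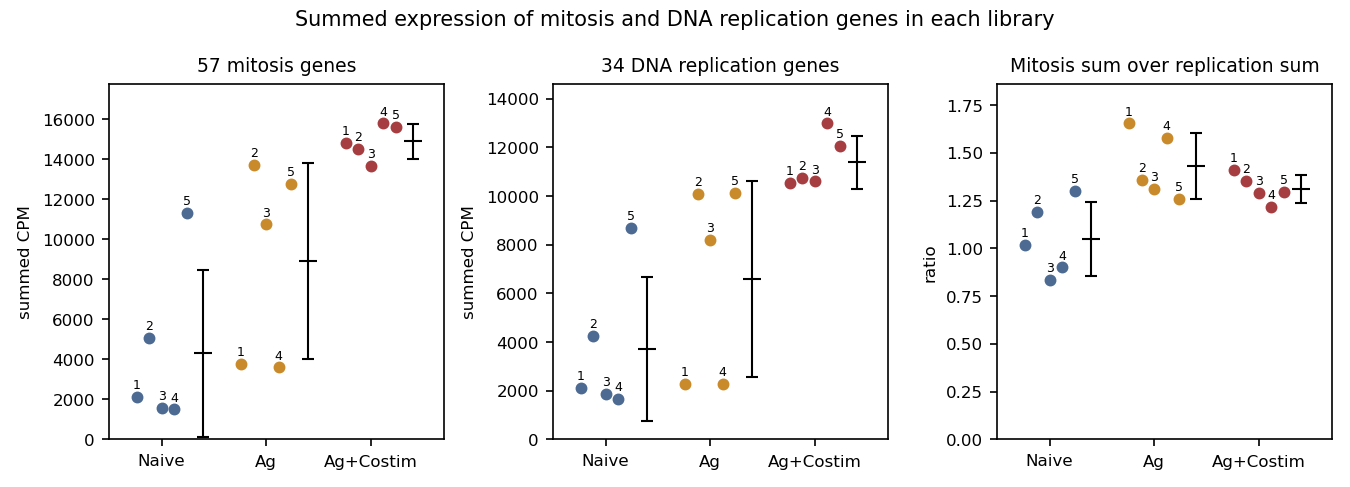
Summed CPM of the 57 mitosis genes (left), summed CPM of the 34 DNA replication genes (middle) and their ratio (right), by group. Each point is a library, labelled with its replicate number, and the bars are the mean ± SD of 5 libraries. The Ag+Costim points lie together between 13684 and 15793 CPM, the Ag points fall into a low group (1 and 4) and a high group (2, 3 and 5), and Naive 5 lies far above the other Naive libraries.

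The 3 comparisons were fitted across all 17366 genes that passed a filter on low counts, with edgeR's quasi-likelihood test over all 15 libraries, and all 57 members were among the genes tested. A gene was called at a Benjamini-Hochberg adjusted p below 0.05, adjusted over all genes tested.

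In Ag against Naive, no member was called. All 57 log2 fold changes were positive, with a median of 1.27 and a range of 0.08 to 1.73, and 3 members (Cenpa, Spc25 and Cdc25c) had an unadjusted p below 0.05, as did 28.7% of all genes in either direction. Over all genes tested, 3.05% were called higher and 3.66% lower, and the median log2 fold change was 0.08. Adjusted p-values of the members in edgeR ran from 0.0938 for Cenpa to 0.844 for Smc4, and their standard errors had a median of 0.75 on the log2 scale. The CPM of the Ag libraries overlapped those of the Naive libraries for every member, against 1.36% of all genes that lay wholly higher in Ag. All Ag libraries were in lane 2 and all Naive libraries in lane 3, which only the Ag+Costim libraries link, and with lane as a term the median was 1.44 and no gene at all was called (0% of all genes). The count turned on Naive 5. Without it, 55 of the 57 members were called higher (12.6% of all genes), with a median log2 fold change of 2.38, and the exceptions were Pttg1 and Smc4.

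In Ag+Costim against Ag, no member was called and none had an unadjusted p below 0.05 in the main edgeR fit, which 26.8% of all genes had in either direction. That fit estimates the spread over all 3 groups together. In edgeR on the 10 libraries of this comparison alone, 12 members had an unadjusted p below 0.05, as did 3317 of 15421 genes. It was 18 members with replicate number as a block (4131 of 17366 genes) and 7 with no filter on low counts (15355 of 48994). No member was called in these fits. In the main fit the log2 fold changes were positive for 56 members, with a median of 0.83 and a range of -0.11 for Smc4 to 1.31 for Espl1. Over all genes, 0.0288% were called higher and 0.00576% lower, so edgeR called almost nothing in this comparison. For 22 of the 57 members every Ag+Costim library had more CPM than every Ag library, against 4.84% of all genes tested, and for no member was the reverse seen. DESeq2 also called 0 members, with 1.67% of all genes called higher, and 1 member had an unadjusted p below 0.05, against 22.8% of all genes in either direction. The voom test of limma with sample quality weights called 56 members higher and Smc4 lower, with a median log2 fold change of 2.27, in a fit that called 28.7% of all genes higher.

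In Ag+Costim against Naive, 50 of the 57 members were called higher and none lower, where 21.0% of all genes tested were called higher and 23.6% lower. The median log2 fold change of the members was 2.14, against -0.08 over all genes, and the middle of the list was narrow, with quartiles of 1.97 and 2.22. The uncalled members were Plk1, Mybl2, Ccna2, Kif11, Aspm, Pttg1 and Smc4, of which the first 5 had log2 fold changes of 1.75 to 2.19. For 50 members all Ag+Costim libraries lay above all Naive libraries, against 18.3% of all genes. The members' adjusted p-values were mostly close to the threshold, with a median of 0.0391 in edgeR. Leaving out a library changed the count widely: 55 members were called without Naive 5 (25.6% of all genes), but 2 without Naive 1 (8.04%), 3 without Naive 4 (7.84%), 6 without Naive 3 (11.1%) and 13 without Naive 2 (15.5%). It was 11, 11, 16, 24 and 9 without Ag+Costim 1 to 5 in turn, where 13.9%, 13.6%, 14.8%, 17.5% and 12.5% of all genes were called higher. The median log2 fold change stayed between 1.87 and 3.30 in these fits. With lane as a term 0 members were called (1.49% of all genes), at a median log2 fold change of 2.24, and within lane 3 alone, which holds all Naive libraries and Ag+Costim 4 and 5, 1 member was called (14.1% of all genes), at a median of 2.27. The voom test called 56 members higher (37.3% of all genes) in this comparison and 38 in Ag against Naive (9.82% of all genes).

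**Figure D2:**
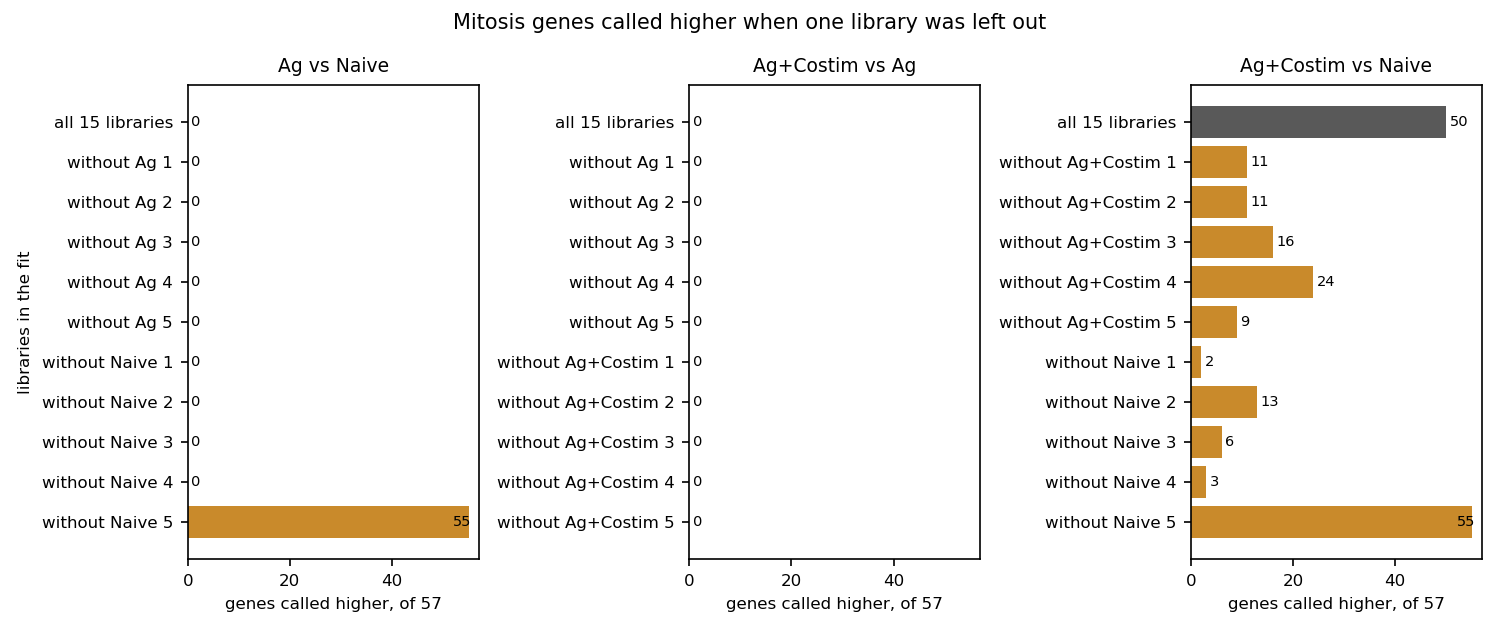
Number of the 57 mitosis genes called higher (x axis) in each comparison, with all 15 libraries and with each library of the compared groups left out in turn (y axis). Leaving out Naive 5 took the count from 0 to 55 in Ag vs Naive, no left-out library gave a call in Ag+Costim vs Ag, and the 50 calls in Ag+Costim vs Naive ranged from 2 to 55.

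The sequences before the transcription start are shown for a few members because the list moved together across libraries. RefSeq promoters (GRCm38.p6, the assembly also called mm10) were available for 47 of the 57 members, in 50 entries, and 250 bases before the start were searched on both strands for the CHR (TTTGAA), the CCAAT box (CCAAT), at which the factor NF-Y binds, and an E2F-type site (TTCGCGC or TTGGCGC, which can overlap a CCAAT box on the other strand). The CHR was found in 17 of the 50 entries (34%), against 15.99% of all 32851 promoters. A CCAAT box was found in 35 entries (70%), against 33.85% of all promoters, and an E2F-type site in 7 (14%), against 3.138%. Both a CHR and a CCAAT box were found in 15 entries (30%), against 5.549%. These are matches to letters, described without a test. For 38 of the 50 entries the bases after the start were found in the opening bases of a GENCODE M21 transcript of the same gene. The other entries may not stand at the start used by the gene annotation.

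Of the members with both motifs, Cdk1, Cdc20, Mki67, Top2a, Ube2c and Kif11 are printed as the last 150 bases before the start. They come from several roles of the list, although Cdc20 and Ube2c share a role, as do Mki67 and Top2a. Beside them are Pttg1, the flattest member with a promoter entry, and Nuf2, whose log2 fold change was among the highest. Neither Pttg1 nor Nuf2 held any of the 3 motifs in 250 bases. The Pttg1 window lies inside the gene as annotated by GENCODE (chr11:43420250-43426251, minus strand), downstream of its outermost start. Its lack of motifs therefore does not describe the bases before that start. In all, 12 members with an entry held none of the 3. Apart from Pttg1, these 11 had log2 fold changes of 1.90 to 2.34 in Ag+Costim against Naive. Of them 10 were called higher, a share near the 50 of 57 for the whole list, where 21.0% of all genes were called higher. Capitals mark the CHR and the CCAAT box, each in either orientation. On the other strand the CHR reads TTCAAA and the CCAAT box reads ATTGG. The sequences run 5′ to 3′ on the gene's strand and stand at chr10:69352913-69353062 (minus strand), chr4:118437344-118437493 (minus), chr7:135716380-135716529 (minus), chr11:99024190-99024339 (minus), chr2:164769779-164769928 (plus), chr19:37376232-37376381 (plus), chr11:43425982-43426131 (minus) and chr1:169531465-169531614 (minus).
Cdk1: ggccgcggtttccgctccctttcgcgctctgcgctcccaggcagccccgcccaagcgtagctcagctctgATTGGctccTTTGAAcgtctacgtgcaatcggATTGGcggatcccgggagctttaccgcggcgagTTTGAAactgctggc
Cdc20: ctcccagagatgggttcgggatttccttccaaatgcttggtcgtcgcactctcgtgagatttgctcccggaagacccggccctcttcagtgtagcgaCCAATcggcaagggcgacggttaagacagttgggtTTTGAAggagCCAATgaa
Mki67: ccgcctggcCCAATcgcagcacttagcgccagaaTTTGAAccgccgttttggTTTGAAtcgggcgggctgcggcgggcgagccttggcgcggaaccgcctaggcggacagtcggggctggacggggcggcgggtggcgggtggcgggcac
Top2a: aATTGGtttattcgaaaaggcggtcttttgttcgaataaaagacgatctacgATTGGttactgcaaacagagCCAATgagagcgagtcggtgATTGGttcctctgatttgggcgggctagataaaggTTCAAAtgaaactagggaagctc
Ube2c: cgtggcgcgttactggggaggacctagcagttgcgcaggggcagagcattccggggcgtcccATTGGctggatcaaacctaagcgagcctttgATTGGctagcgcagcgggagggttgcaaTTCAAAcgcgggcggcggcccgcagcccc
Kif11: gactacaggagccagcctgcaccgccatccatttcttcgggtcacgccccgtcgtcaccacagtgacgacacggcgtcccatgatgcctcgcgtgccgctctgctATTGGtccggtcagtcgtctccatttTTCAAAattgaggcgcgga
Pttg1: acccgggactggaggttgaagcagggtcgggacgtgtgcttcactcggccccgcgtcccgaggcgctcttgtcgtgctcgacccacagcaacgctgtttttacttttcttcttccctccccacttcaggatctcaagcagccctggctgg
Nuf2: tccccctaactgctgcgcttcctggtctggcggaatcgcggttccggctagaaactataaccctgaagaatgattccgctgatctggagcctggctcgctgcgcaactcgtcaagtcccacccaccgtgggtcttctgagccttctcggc
The CHR nearest the start began 15 bases before it in Cdk1, 18 in Cdc20, 23 in Top2a, 29 in Ube2c and 19 in Kif11, and each of these promoters had a CCAAT box upstream of that CHR. In Mki67 the CHR copies began 98 and 116 bases before the start. These distances are from the RefSeq start. By GENCODE the Cdk1 gene begins at chr10:69352938 and Ube2c at chr2:164769898, both within the printed window. The CHR nearest the RefSeq start therefore lies inside the annotated gene in Cdk1 and Ube2c. In Cdc20, whose gene begins at chr4:118437352, the same holds for the nearest CCAAT box but not for the CHR.

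The regulators of the programme, Foxm1, Mybl2 and Melk, a kinase abundant in dividing cells, showed the same library pattern as most of the list. Foxm1, a forkhead factor that activates late cell cycle genes (ENSMUSG00000001517.14, chr6:128362967-128376146, plus strand), was at 8.03, 29.5, 6.80, 6.32 and 97.00 CPM in Naive 1 to 5, at 24.5, 67.2, 77.3, 22.7 and 78.1 in Ag 1 to 5 and at 104, 105, 114, 105 and 115 in Ag+Costim 1 to 5. Every Ag+Costim library lay above every Ag and every Naive library for Foxm1. For Foxm1, the log2 fold change was 0.97 ± 0.70 in Ag against Naive, 1.01 ± 0.70 in Ag+Costim against Ag and 1.98 ± 0.72 in Ag+Costim against Naive (± SE; edgeR adjusted p = 0.353, 0.36 and 0.0389). Mybl2 (ENSMUSG00000017861.11, chr2:163054687-163084688, plus strand) was at 10.5, 40.3, 6.53, 5.56 and 99.6 CPM in Naive 1 to 5, at 14.2, 102, 96.4, 12.6 and 109 in Ag 1 to 5 and at 112, 119, 121, 146 and 140.3 in Ag+Costim 1 to 5. Its Naive values spanned from 5.56 to 99.6 CPM, the highest of them in Naive 5, and again all Ag+Costim libraries were above all others. For Mybl2, the log2 fold change was 1.16 ± 0.81 in Ag against Naive, 0.92 ± 0.80 in Ag+Costim against Ag and 2.08 ± 0.83 in Ag+Costim against Naive (± SE; edgeR adjusted p = 0.333, 0.469 and 0.0533). Mybl2 was not called in Ag+Costim against Naive, while Foxm1 and Melk were.

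Mitotic entry is driven by cyclin-dependent kinase 1 with cyclins A2, B1 and B2, and by the phosphatase Cdc25c that removes the inhibitory phosphates from the kinase. Cdk1 (ENSMUSG00000019942.13, chr10:69335146-69352938, minus strand) was at 22.7, 90.2, 11.9, 11.3 and 216 CPM in Naive 1 to 5, at 43.9, 342, 234, 44.00 and 360.1 in Ag 1 to 5 and at 305, 289.6, 265, 346 and 313 in Ag+Costim 1 to 5. Ag 2 and Ag 5 reached or passed most Ag+Costim libraries, and Naive 5 lay below all of them. For Cdk1, the log2 fold change was 1.66 ± 0.83 in Ag against Naive, 0.55 ± 0.81 in Ag+Costim against Ag and 2.21 ± 0.85 in Ag+Costim against Naive (± SE; edgeR adjusted p = 0.196, 0.682 and 0.0467). Ccnb1, cyclin B1 (ENSMUSG00000041431.16, chr13:100778650-100786570, minus strand), was at 25.9, 96.01, 11.4, 11.2 and 242 CPM in Naive 1 to 5, at 43.04, 318, 248, 42.3 and 355 in Ag 1 to 5 and at 372, 355, 323, 434 and 405 in Ag+Costim 1 to 5. It had the highest log2 fold change of all members in Ag+Costim against Naive, where the groups did not overlap. For Ccnb1, the log2 fold change was 1.50 ± 0.84 in Ag against Naive, 0.89 ± 0.83 in Ag+Costim against Ag and 2.39 ± 0.87 in Ag+Costim against Naive (± SE; edgeR adjusted p = 0.242, 0.502 and 0.0391). Ccna2, cyclin A2 (ENSMUSG00000027715.9, chr3:36564865-36572150, minus strand), was at 43.7, 213, 25.6, 24.99 and 598 CPM in Naive 1 to 5, at 89.3, 686, 499, 83.8 and 693 in Ag 1 to 5 and at 674, 700.1, 642, 783 and 728 in Ag+Costim 1 to 5. Naive 5 came within 43.7 CPM of the lowest Ag+Costim library, and Ccna2 was the uncalled gene of this group. For Ccna2, the log2 fold change was 1.30 ± 0.87 in Ag against Naive, 0.76 ± 0.86 in Ag+Costim against Ag and 2.06 ± 0.89 in Ag+Costim against Naive (± SE; edgeR adjusted p = 0.316, 0.582 and 0.0702). Ccnb2 and Cdc25c, called in Ag+Costim against Naive, had log2 fold changes there of 2.26 ± 0.86 and 2.12 ± 0.72.

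Among the mitotic kinases, Plk1, polo-like kinase 1, which acts from entry to cytokinesis (ENSMUSG00000030867.7, chr7:122159439-122169873, plus strand), was at 28.3, 98.5, 11.8, 11.1 and 241 CPM in Naive 1 to 5, at 33.5, 296, 236, 36.5 and 326 in Ag 1 to 5 and at 309, 306, 313, 363 and 369 in Ag+Costim 1 to 5. Its Ag+Costim libraries lay above the Naive ones without overlap, yet it was uncalled. For Plk1, the log2 fold change was 1.37 ± 0.85 in Ag against Naive, 0.82 ± 0.84 in Ag+Costim against Ag and 2.19 ± 0.87 in Ag+Costim against Naive (± SE; edgeR adjusted p = 0.28, 0.542 and 0.0531). Nek2, a centrosome kinase (ENSMUSG00000026622.15, chr1:191821444-191833050, plus strand), was at 14.3, 63.5, 8.19, 7.54 and 159.7 CPM in Naive 1 to 5, at 23.2, 152, 164, 25.2 and 149 in Ag 1 to 5 and at 209, 203, 191, 253 and 236 in Ag+Costim 1 to 5. It was among the 3 members with the highest log2 fold change in Ag+Costim against Ag, and its Ag+Costim values lay above all Ag values. For Nek2, the log2 fold change was 1.13 ± 0.82 in Ag against Naive, 1.08 ± 0.82 in Ag+Costim against Ag and 2.21 ± 0.85 in Ag+Costim against Naive (± SE; edgeR adjusted p = 0.352, 0.404 and 0.0466). Aurka, aurora kinase A of the spindle poles, was called in Ag+Costim against Naive at 2.23 ± 0.80.

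The chromosomal passenger complex, made of aurora B, survivin, INCENP and borealin (Cdca8), corrects faulty attachments of chromosomes to the spindle. All 4 members were called in Ag+Costim against Naive. Aurkb (ENSMUSG00000020897.12, chr11:69045647-69051664, plus strand) was at 20.5, 87.3, 9.45, 10.9 and 194 CPM in Naive 1 to 5, at 43.5, 270.5, 201, 46.1 and 303 in Ag 1 to 5 and at 309.9, 289, 257, 295 and 299 in Ag+Costim 1 to 5. Ag 5 matched the upper Ag+Costim libraries, and Ag 1 and Ag 4 held the lowest Ag values. For Aurkb, the log2 fold change was 1.54 ± 0.81 in Ag against Naive, 0.73 ± 0.79 in Ag+Costim against Ag and 2.27 ± 0.83 in Ag+Costim against Naive (± SE; edgeR adjusted p = 0.214, 0.566 and 0.0391). Birc5, survivin (ENSMUSG00000017716.15, chr11:117849251-117855743, plus strand), was at 40.4, 170.5, 20.8, 17.6 and 374 CPM in Naive 1 to 5, at 96.1, 592, 386, 83.3 and 663 in Ag 1 to 5 and at 554, 551, 503, 556 and 526 in Ag+Costim 1 to 5. Ag 2 and Ag 5 were above every Ag+Costim library. For Birc5, the log2 fold change was 1.67 ± 0.82 in Ag against Naive, 0.54 ± 0.80 in Ag+Costim against Ag and 2.21 ± 0.84 in Ag+Costim against Naive (± SE; edgeR adjusted p = 0.191, 0.682 and 0.0449). Incenp had the lowest log2 fold change of the complex, at 1.69 ± 0.51 in Ag+Costim against Naive, and its Naive values started from a higher level, 34.7 to 224 CPM.

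The spindle checkpoint genes Bub1, Bub1b, Mad2l1 and Ttk, which delay anaphase until all chromosomes are attached, were also all called in Ag+Costim against Naive, at log2 fold changes of 1.97 to 2.29. Bub1b, BubR1 (ENSMUSG00000040084.9, chr2:118598211-118641591, plus strand), was at 25.3, 68.1, 14.00, 13.2 and 262 CPM in Naive 1 to 5, at 52.7, 262, 237, 49.97 and 263 in Ag 1 to 5 and at 288, 317, 301, 367 and 352 in Ag+Costim 1 to 5. Naive 5 stood at 262 CPM, level with the highest Ag libraries, and 3.84-fold above the next Naive library. For Bub1b, the log2 fold change was 1.28 ± 0.79 in Ag against Naive, 0.90 ± 0.78 in Ag+Costim against Ag and 2.18 ± 0.81 in Ag+Costim against Naive (± SE; edgeR adjusted p = 0.276, 0.465 and 0.0413).

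For anaphase and cohesion, the APC/C activator Cdc20, the ubiquitin-conjugating enzyme Ube2c, the protease separase (Espl1) and the shugoshins Sgo1 and Sgo2a were called in Ag+Costim against Naive, and securin (Pttg1) was not. Cdc20 (ENSMUSG00000006398.15, chr4:118432901-118437352, minus strand) was at 34.7, 111, 19.9, 20.3 and 258 CPM in Naive 1 to 5, at 65.4, 353, 256, 50.96 and 434 in Ag 1 to 5 and at 377, 359, 367, 409.9 and 381 in Ag+Costim 1 to 5. Ag 5 held its highest value of all 15 libraries. For Cdc20, the log2 fold change was 1.51 ± 0.75 in Ag against Naive, 0.69 ± 0.74 in Ag+Costim against Ag and 2.20 ± 0.77 in Ag+Costim against Naive (± SE; edgeR adjusted p = 0.196, 0.561 and 0.034). Ube2c (ENSMUSG00000001403.13, chr2:164769898-164778822, plus strand) was at 27.4, 110.0, 12.1, 12.7 and 268 CPM in Naive 1 to 5, at 58.02, 430.2, 267, 55.6 and 496 in Ag 1 to 5 and at 400.5, 374, 339, 406 and 383 in Ag+Costim 1 to 5. It had the highest log2 fold change of the members in Ag against Naive and was near the lowest in Ag+Costim against Ag, and Ag 2 and Ag 5 lay above all Ag+Costim libraries. For Ube2c, the log2 fold change was 1.73 ± 0.86 in Ag against Naive, 0.52 ± 0.83 in Ag+Costim against Ag and 2.24 ± 0.87 in Ag+Costim against Naive (± SE; edgeR adjusted p = 0.192, 0.707 and 0.0485). Espl1 (ENSMUSG00000058290.4, chr15:102296266-102324357, plus strand) was at 8.78, 28.98, 7.44, 5.49 and 108 CPM in Naive 1 to 5, at 15.7, 73.1, 91.2, 18.1 and 58.2 in Ag 1 to 5 and at 106, 126, 103, 158 and 142 in Ag+Costim 1 to 5. It showed the highest log2 fold change of the members in Ag+Costim against Ag, and all Ag+Costim libraries lay above all Ag libraries, but Naive 5 reached into the Ag+Costim range. For Espl1, the log2 fold change was 0.78 ± 0.76 in Ag against Naive, 1.31 ± 0.77 in Ag+Costim against Ag and 2.096 ± 0.79 in Ag+Costim against Naive (± SE; edgeR adjusted p = 0.489, 0.283 and 0.0432).

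Pttg1, the securin that holds separase inactive (ENSMUSG00000020415.16, chr11:43420250-43426251, minus strand), was nearly flat. It was at 90.7, 106, 75.5, 79.01 and 94.6 CPM in Naive 1 to 5, at 91.99, 122, 94.5, 81.8 and 129 in Ag 1 to 5 and at 109, 108, 102, 93.05 and 101 in Ag+Costim 1 to 5. The groups overlapped throughout, and the highest library exceeded the lowest by 1.70-fold, against a median of 27.5-fold over the 57 members. For Pttg1, the log2 fold change was 0.33 ± 0.17 in Ag against Naive, 0.02 ± 0.17 in Ag+Costim against Ag and 0.35 ± 0.17 in Ag+Costim against Naive (± SE; edgeR adjusted p = 0.201, 0.955 and 0.097). Its standard error was the smallest of the list. In Ag+Costim against Ag its log2 fold change turned to -0.03 when library totals alone were used for scaling.

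In the centromere and kinetochore group all 8 members were called in Ag+Costim against Naive: the centromeric histone Cenpa, the kinesin Cenpe, Cenpf, the 4 subunits of the Ndc80 complex that grips the microtubule (Ndc80, Nuf2, Spc24 and Spc25) and its partner Knl1. Cenpa (ENSMUSG00000029177.9, chr5:30666777-30674830, plus strand) was at 67.9, 151, 44.7, 47.3 and 281 CPM in Naive 1 to 5, at 161, 431, 300.2, 147 and 467 in Ag 1 to 5 and at 424, 396, 384, 377 and 386 in Ag+Costim 1 to 5. Ag 2 and Ag 5 were the highest of all libraries, and Ag 1 and Ag 4 lay above all Naive libraries other than Naive 5 and, for Ag 4, Naive 2. For Cenpa, the log2 fold change was 1.46 ± 0.52 in Ag against Naive, 0.39 ± 0.51 in Ag+Costim against Ag and 1.85 ± 0.52 in Ag+Costim against Naive (± SE; edgeR adjusted p = 0.0938, 0.638 and 0.0164). Ndc80 (ENSMUSG00000024056.10, chr17:71496100-71526857, minus strand) was at 28.7, 64.97, 21.95, 15.8 and 111 CPM in Naive 1 to 5, at 40.1, 168, 107, 36.5 and 142 in Ag 1 to 5 and at 159, 164, 156, 181 and 175 in Ag+Costim 1 to 5. The Ag+Costim libraries fell within 24.4 CPM of each other, above all Naive libraries. For Ndc80, the log2 fold change was 1.15 ± 0.56 in Ag against Naive, 0.75 ± 0.55 in Ag+Costim against Ag and 1.90 ± 0.57 in Ag+Costim against Naive (± SE; edgeR adjusted p = 0.185, 0.386 and 0.0191). Nuf2 (ENSMUSG00000026683.14, chr1:169497934-169531464, minus strand) was at 7.27, 47.6, 5.46, 5.26 and 109.8 CPM in Naive 1 to 5, at 25.2, 185, 123, 22.3 and 165 in Ag 1 to 5 and at 163, 163, 151, 179 and 173 in Ag+Costim 1 to 5. It was among the 3 highest members in both comparisons with Naive. For Nuf2, the log2 fold change was 1.69 ± 0.86 in Ag against Naive, 0.65 ± 0.84 in Ag+Costim against Ag and 2.34 ± 0.87 in Ag+Costim against Naive (± SE; edgeR adjusted p = 0.202, 0.628 and 0.0428). Spc25 (ENSMUSG00000005233.16, chr2:69193895-69206194, minus strand) was at 12.3, 40.8, 7.56, 6.02 and 93.3 CPM in Naive 1 to 5, at 28.1, 165, 109, 23.95 and 146 in Ag 1 to 5 and at 156, 142, 122, 158 and 148 in Ag+Costim 1 to 5. It was the third highest in Ag against Naive, with an unadjusted p of 0.0409. For Spc25, the log2 fold change was 1.68 ± 0.75 in Ag against Naive, 0.60 ± 0.73 in Ag+Costim against Ag and 2.29 ± 0.76 in Ag+Costim against Naive (± SE; edgeR adjusted p = 0.158, 0.607 and 0.0286).

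Among the 7 kinesin motors, 6 were called in Ag+Costim against Naive and Kif11 was not. Kif11, the motor that pushes the spindle poles apart (ENSMUSG00000012443.4, chr19:37376403-37421859, plus strand), was at 28.3, 123, 16.7, 15.1 and 345 CPM in Naive 1 to 5, at 68.8, 314, 311, 76.2 and 249 in Ag 1 to 5 and at 411, 391, 341, 443 and 412 in Ag+Costim 1 to 5. Naive 5, at 345 CPM, lay above Ag+Costim 3 and above every Ag library. For Kif11, the log2 fold change was 1.05 ± 0.78 in Ag against Naive, 0.97 ± 0.78 in Ag+Costim against Ag and 2.02 ± 0.80 in Ag+Costim against Naive (± SE; edgeR adjusted p = 0.365, 0.432 and 0.0534). Kif2c, a microtubule depolymerase of the centromere (ENSMUSG00000028678.13, chr4:117159639-117182639, minus strand), was at 14.00, 51.4, 5.50, 5.87 and 133 CPM in Naive 1 to 5, at 24.05, 167, 125, 22.5 and 184 in Ag 1 to 5 and at 207, 197, 175, 226 and 211 in Ag+Costim 1 to 5. Ag+Costim 3 was below Ag 5, and the other Ag+Costim libraries were above all Ag libraries. For Kif2c, the log2 fold change was 1.44 ± 0.85 in Ag against Naive, 0.94 ± 0.83 in Ag+Costim against Ag and 2.37 ± 0.87 in Ag+Costim against Naive (± SE; edgeR adjusted p = 0.26, 0.479 and 0.0402). Kif4, a motor of the chromosome arms (ENSMUSG00000034311.3, chrX:100625737-100727214, plus strand), was at 14.1, 33.8, 8.58, 7.01 and 129 CPM in Naive 1 to 5, at 29.1, 86.6, 98.03, 21.7 and 73.1 in Ag 1 to 5 and at 138, 135, 125, 154 and 150.2 in Ag+Costim 1 to 5. As for Espl1, all Ag+Costim libraries were above all Ag libraries while Naive 5 reached into their range. For Kif4, the log2 fold change was 0.77 ± 0.71 in Ag against Naive, 1.19 ± 0.72 in Ag+Costim against Ag and 1.97 ± 0.73 in Ag+Costim against Naive (± SE; edgeR adjusted p = 0.461, 0.294 and 0.042). Kif20a and Kif23, motors of the central spindle, were called at 2.32 ± 0.82 and 1.75 ± 0.52 in Ag+Costim against Naive.

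The spindle group of Tpx2, Nusap1, Hmmr, Ckap2l, Dlgap5 and Aspm binds and organises microtubules, and 5 of its 6 members were called in Ag+Costim against Naive. Tpx2, which activates aurora A on the spindle (ENSMUSG00000027469.16, chr2:152847964-152895321, plus strand), was at 24.02, 85.9, 12.3, 11.8 and 239.8 CPM in Naive 1 to 5, at 50.1, 280.5, 249.7, 44.3 and 259 in Ag 1 to 5 and at 301, 298, 314, 353 and 356 in Ag+Costim 1 to 5. All Ag+Costim libraries were above all Ag and Naive libraries. For Tpx2, the log2 fold change was 1.35 ± 0.80 in Ag against Naive, 0.87 ± 0.79 in Ag+Costim against Ag and 2.22 ± 0.82 in Ag+Costim against Naive (± SE; edgeR adjusted p = 0.264, 0.491 and 0.0419). Aspm, a spindle pole protein (ENSMUSG00000033952.14, chr1:139454772-139494091, plus strand), was at 10.98, 34.3, 5.54, 4.34 and 111 CPM in Naive 1 to 5, at 34.7, 95.9, 111, 31.99 and 83.3 in Ag 1 to 5 and at 108, 108, 95.1, 98.8 and 115 in Ag+Costim 1 to 5. Naive 5, Ag 2 and Ag 3 lay inside the Ag+Costim range, and Aspm was uncalled. For Aspm, the log2 fold change was 1.18 ± 0.74 in Ag against Naive, 0.56 ± 0.73 in Ag+Costim against Ag and 1.75 ± 0.75 in Ag+Costim against Naive (± SE; edgeR adjusted p = 0.287, 0.635 and 0.0688).

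The cytokinesis genes were all called in Ag+Costim against Naive. Prc1, which bundles the microtubules of the central spindle (ENSMUSG00000038943.16, chr7:80294450-80316259, plus strand), was at 24.1, 87.6, 12.3, 12.3 and 207 CPM in Naive 1 to 5, at 53.6, 229, 206, 56.4 and 204 in Ag 1 to 5 and at 276, 270.1, 228, 306 and 302 in Ag+Costim 1 to 5. Its lowest Ag+Costim library, Ag+Costim 3, was just below Ag 2. For Prc1, the log2 fold change was 1.23 ± 0.73 in Ag against Naive, 0.88 ± 0.73 in Ag+Costim against Ag and 2.11 ± 0.75 in Ag+Costim against Naive (± SE; edgeR adjusted p = 0.265, 0.441 and 0.0359). Racgap1, part of the centralspindlin complex (ENSMUSG00000023015.14, chr15:99620496-99651656, minus strand), was at 187, 282, 203, 147 and 466 CPM in Naive 1 to 5, at 177, 555, 454, 211 and 559 in Ag 1 to 5 and at 642, 596, 595, 626 and 685 in Ag+Costim 1 to 5. It had the third lowest log2 fold change in both comparisons with Naive, with a substantial level in every Naive library, and yet the smallest adjusted p-value of the members in Ag+Costim against Naive. For Racgap1, the log2 fold change was 0.73 ± 0.39 in Ag against Naive, 0.69 ± 0.39 in Ag+Costim against Ag and 1.42 ± 0.39 in Ag+Costim against Naive (± SE; edgeR adjusted p = 0.218, 0.265 and 0.0149). Ect2 and Anln, which position and form the contractile ring, stood at 2.08 ± 0.72 and 1.94 ± 0.72 in that comparison.

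The chromosome structure genes encode condensin subunits, which compact chromosomes, topoisomerase II alpha, which untangles them, and Ki-67, which coats them. Mki67 (ENSMUSG00000031004.8, chr7:135689784-135716361, minus strand) was at 37.2, 108, 16.8, 18.2 and 331 CPM in Naive 1 to 5, at 129, 365, 283, 119 and 182 in Ag 1 to 5 and at 433, 431, 379, 430.1 and 434 in Ag+Costim 1 to 5. Every Ag+Costim library was above every Ag and Naive library, and Ag 1, Ag 4 and Ag 5 lay at 182 CPM or less. For Mki67, the log2 fold change was 1.15 ± 0.70 in Ag against Naive, 0.99 ± 0.70 in Ag+Costim against Ag and 2.14 ± 0.72 in Ag+Costim against Naive (± SE; edgeR adjusted p = 0.272, 0.368 and 0.0291). Top2a (ENSMUSG00000020914.17, chr11:98992943-99024189, minus strand) was at 69.04, 241, 42.01, 31.8 and 703 CPM in Naive 1 to 5, at 181, 688, 594, 177 and 565 in Ag 1 to 5 and at 727, 759, 757, 858 and 885 in Ag+Costim 1 to 5. Naive 5 lay above every Ag library, and all Ag+Costim libraries were higher still. For Top2a, the log2 fold change was 1.117 ± 0.74 in Ag against Naive, 0.85 ± 0.74 in Ag+Costim against Ag and 1.97 ± 0.76 in Ag+Costim against Naive (± SE; edgeR adjusted p = 0.312, 0.464 and 0.0476). Ncapg, a condensin I subunit (ENSMUSG00000015880.13, chr5:45669919-45700546, plus strand), was at 21.3, 78.3, 11.3, 9.75 and 209 CPM in Naive 1 to 5, at 51.1, 260.0, 197, 54.7 and 206 in Ag 1 to 5 and at 286, 271, 248, 298 and 276 in Ag+Costim 1 to 5. Naive 5 matched Ag 5 and lay below all Ag+Costim libraries. For Ncapg, the log2 fold change was 1.33 ± 0.77 in Ag against Naive, 0.84 ± 0.76 in Ag+Costim against Ag and 2.16 ± 0.79 in Ag+Costim against Naive (± SE; edgeR adjusted p = 0.255, 0.487 and 0.0392).

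Smc4, the condensin subunit shared by condensin I and II (ENSMUSG00000034349.14, chr3:69004738-69034623, plus strand), ran against the rest of the list. It was at 595, 582, 524, 566 and 449 CPM in Naive 1 to 5, at 874, 487, 357, 823 and 231 in Ag 1 to 5 and at 509, 478, 478, 441 and 485 in Ag+Costim 1 to 5. Ag 1 and Ag 4, the lowest Ag libraries for most members, were the highest for Smc4, and Naive 5, the highest Naive library for most members, was the lowest. For Smc4, the log2 fold change was 0.08 ± 0.24 in Ag against Naive, -0.11 ± 0.24 in Ag+Costim against Ag and -0.03 ± 0.24 in Ag+Costim against Naive (± SE; edgeR adjusted p = 0.844, 0.791 and 0.926). Its partner Smc2 rose with the others, with a called log2 fold change of 1.80 ± 0.53 in Ag+Costim against Naive. By the estimated transcript counts, Smc4-201, the full protein-coding transcript, held 14.97% to 88.98% of the gene's counts. Smc4-207, annotated as subject to nonsense-mediated decay, held 0.813% to 70.4%. The estimated division between the transcripts thus varied widely between libraries of the same group. How well the estimates assign reads to transcripts of the same gene was not tested. The direction of Smc4 was not stable: without Ag 1 its log2 fold change in Ag against Naive was -0.10, and in Ag+Costim against Ag it was 0.06.

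**Figure D3:**
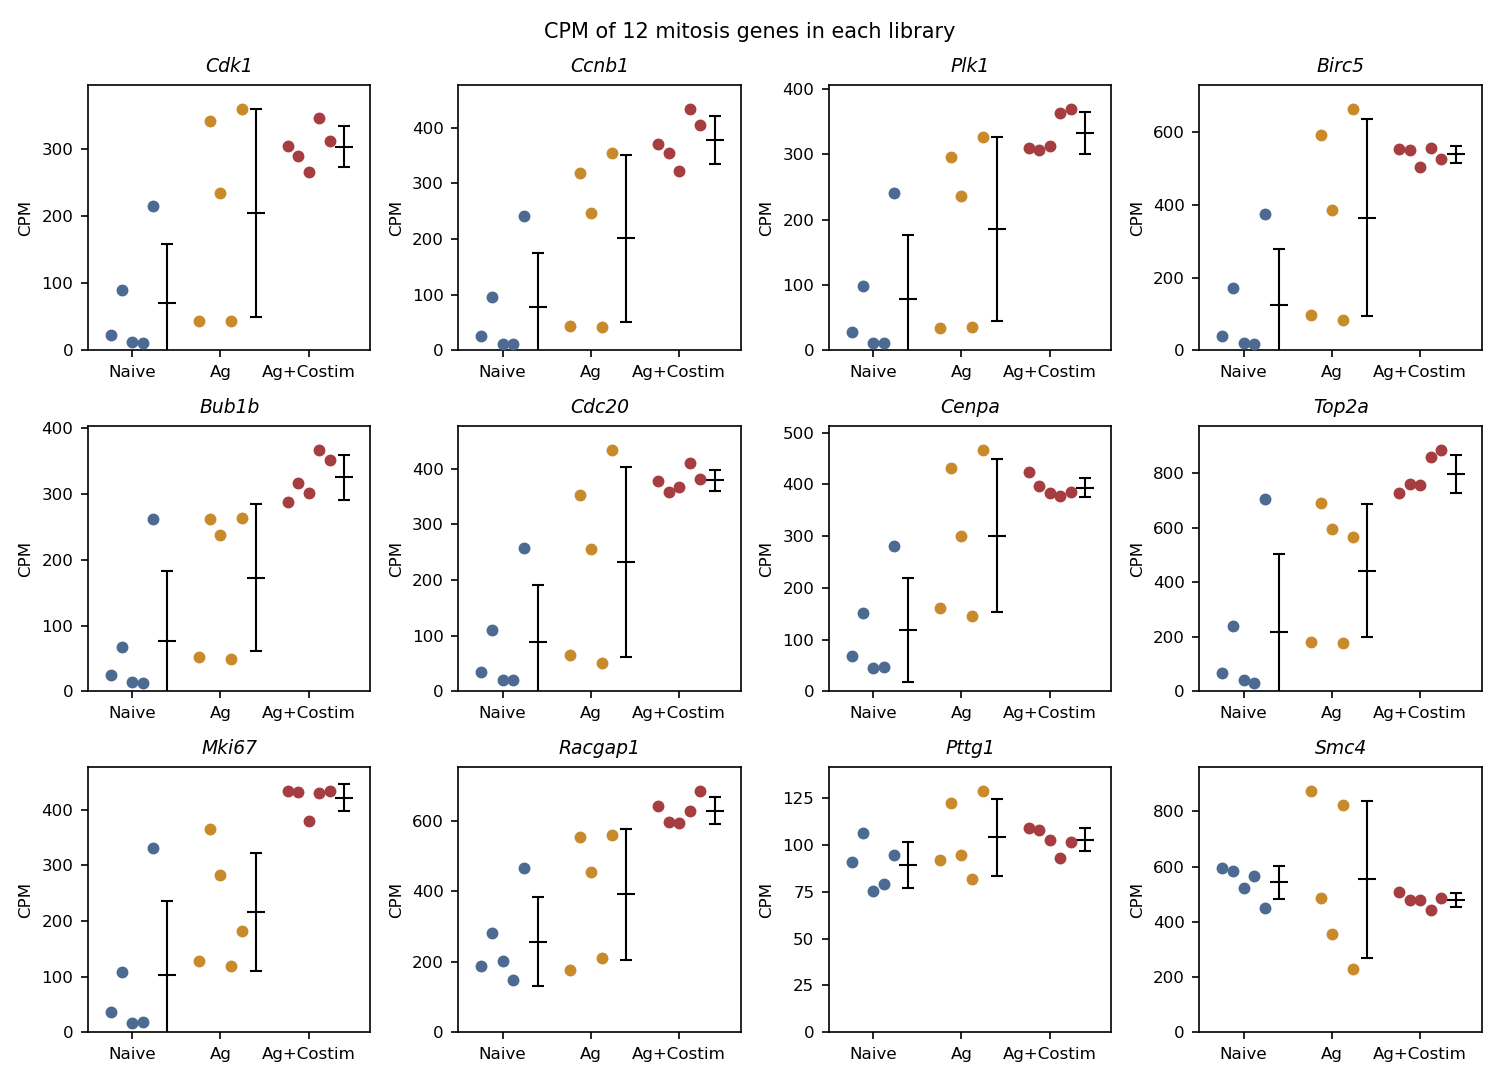
CPM of 12 mitosis genes in Naive, Ag and Ag+Costim, 1 point per library in order of replicate number, with the mean ± SD of 5 libraries beside them (lower bars end at 0 where the SD exceeds the mean). In 10 genes, Cdk1 to Racgap1, Naive 5 is the highest Naive library and Ag 1 and Ag 4 are the lowest Ag libraries, while Pttg1 stays between 75.5 and 129 CPM and Smc4 is highest in Ag 1 and Ag 4.

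**Figure D4:**
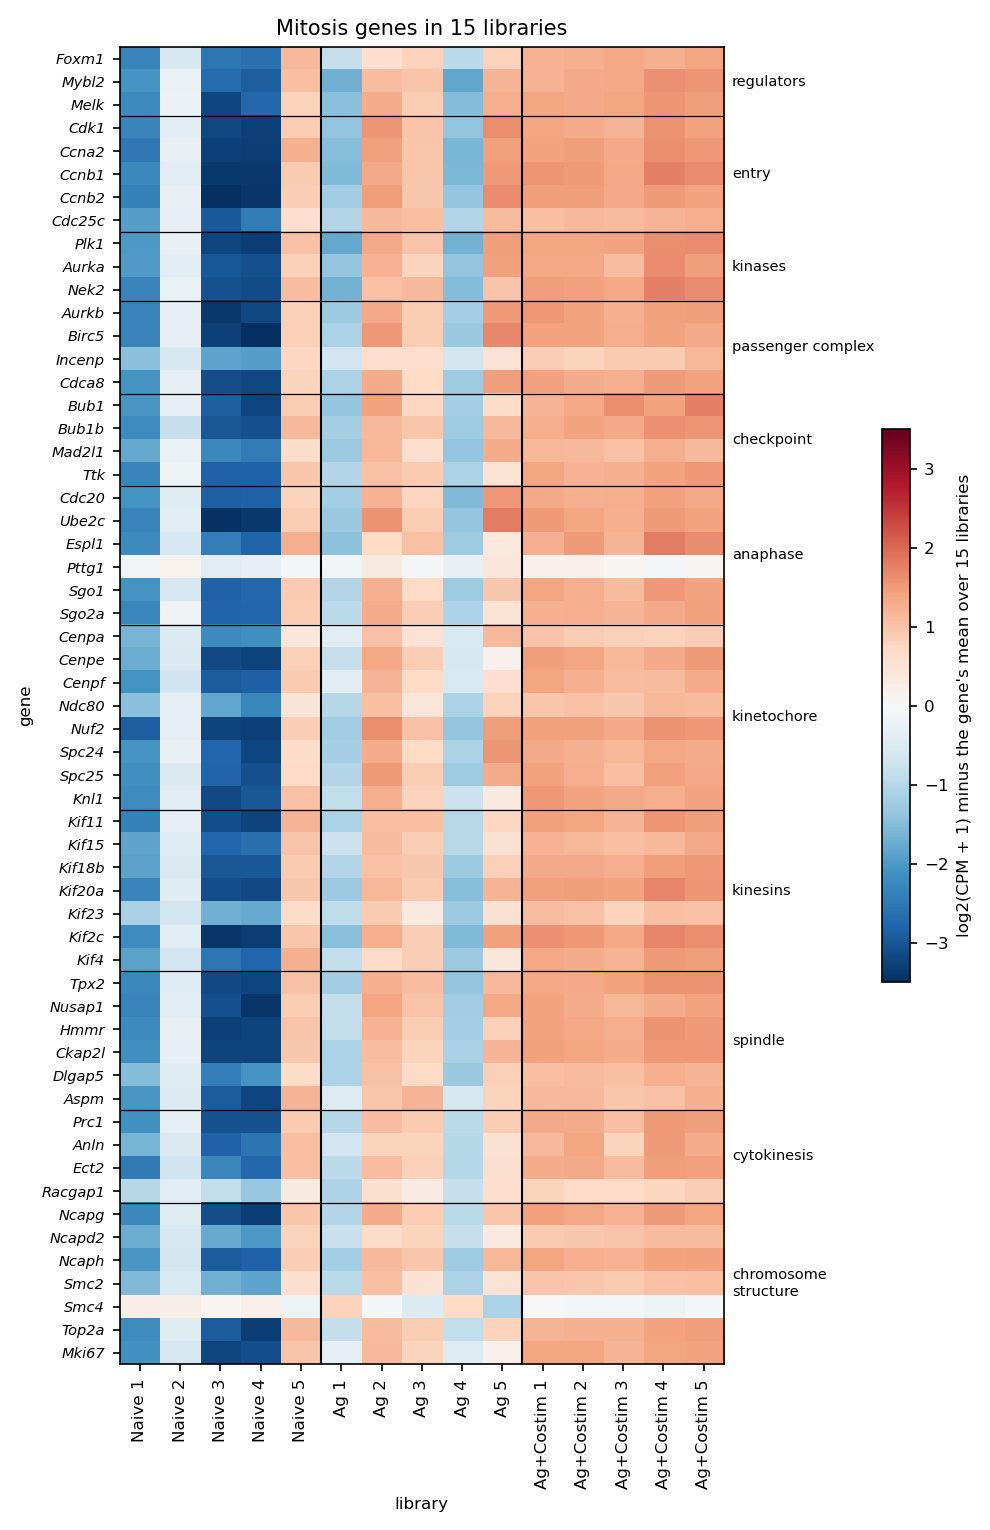
The 57 mitosis genes (rows, grouped by role) in the 15 libraries (columns), as log2(CPM + 1) minus the gene's mean over the libraries, red above the mean and blue below. The columns of Naive 5, Ag 2, Ag 3 and Ag 5 resemble the Ag+Costim columns, those of Ag 1 and Ag 4 are pale blue, and the rows of Pttg1 and Smc4 stay near white or run the other way.

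Per length, as TPM (transcripts per 1000000 transcripts, computed here from the transcript counts and annotated lengths), the members differed widely in level. In Ag+Costim the highest mean levels were Birc5 at 851 ± 32.6, Ube2c at 608 ± 42.4, Ccnb2 at 513 ± 23.2 and Cenpa at 503 ± 18.3 TPM (SD, n = 5). Ccnb2 and Cenpa did not differ beyond these spreads. The lowest were Aspm at 18.3 ± 1.81, Anln at 19.2 ± 3.59 and Sgo2a at 25.1 ± 1.85 TPM. In Naive cells the order was led instead by Smc4 at 230.0 ± 38.8 TPM, followed by Birc5 at 195 ± 244, Pttg1 at 165 ± 22.7, Cenpa at 140.3 ± 131, Ube2c at 136 ± 177 and Racgap1 at 134 ± 65.7 TPM. Neighbours in this order did not differ beyond their spreads, and the large SD of Birc5, as against that of Smc4 and Pttg1, came with the library pattern above.

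By role, the median log2 fold changes in Ag+Costim against Naive lay close together, from 1.97 for chromosome structure to 2.23 for the passenger complex. In Ag against Naive they ran from 1.02 for cytokinesis to 1.54 for mitotic entry. Between Ag+Costim and Ag they ran from 0.62 for mitotic entry to 0.98 for the checkpoint. The comparisons share libraries, so these values are side by side and are not independent of each other. Differences between roles were not tested.

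**Figure D5:**
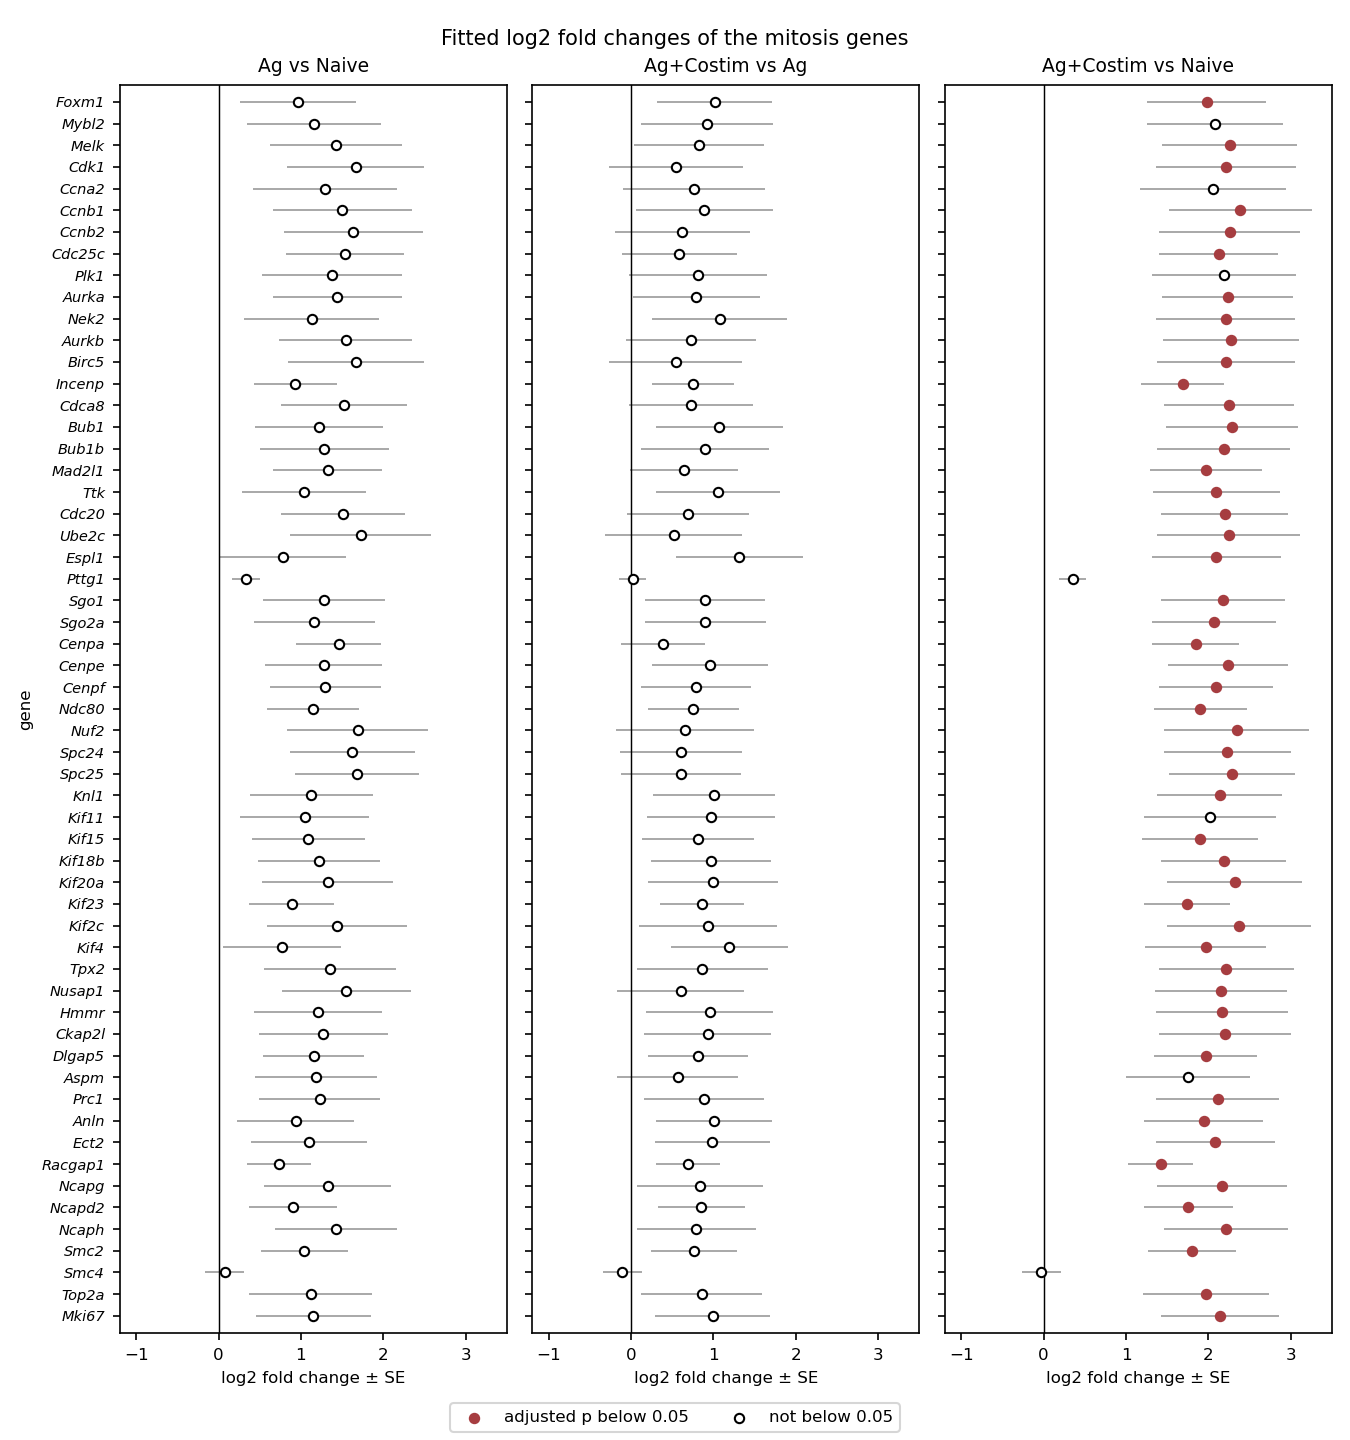
Fitted log2 fold change ± SE (x axis) of each of the 57 mitosis genes (y axis, in order of role) in the 3 comparisons. Filled points have an edgeR adjusted p below 0.05, which 50 genes reached in Ag+Costim vs Naive and none in the other comparisons, and Pttg1 and Smc4 lie near 0 with small errors.

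A further list of 110 mitosis genes, taken as the rest of the same machinery, gave a broader picture of the pathway, and all 110 passed the filter. In Ag against Naive 4 were called higher (Psrc1, Nde1, Anapc10 and Anapc13) and 0 lower, a share near the 3.05% of all genes called higher. In Ag+Costim against Ag 0 were called in edgeR, with 29 at an unadjusted p below 0.05, a share near the 26.8% of all genes. DESeq2 called 22 higher, where it called 1.67% of all genes higher. Against Naive, Ag+Costim had 88 called higher and 3 lower, where 21.0% of all genes were called higher and 23.6% lower. By group, the calls in that comparison were 28 of 31 further kinetochore and centromere genes, 20 of 22 further kinesin, spindle and centrosome genes, 16 of 17 genes of entry, exit and cytokinesis, 13 of 16 of the anaphase-promoting complex, 2 of 3 of condensin II, 5 of 10 DREAM subunits and 4 of 11 cohesin genes. The lower calls were the cohesin loader Nipbl, the cohesin release factor Wapl and the DREAM subunit E2f5.

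The further genes with the highest log2 fold change in Ag+Costim against Naive were Cenpi at 2.28 ± 0.67 (adjusted p = 0.018), Psrc1 at 2.28 ± 0.52 (adjusted p = 0.0073) and Tacc3 at 2.27 ± 0.73 (adjusted p = 0.025), and the lowest were Numa1 at -0.49 ± 0.21 (adjusted p = 0.0728), E2f5 at -0.63 ± 0.21 (adjusted p = 0.0294) and Nipbl at -1.43 ± 0.34 (adjusted p = 0.00865) (log2 ± SE, with the adjusted p of edgeR). By edgeR in Ag against Naive the highest were Psrc1 at 2.18 ± 0.52 (adjusted p = 0.0258), Cdca3 at 1.68 ± 0.76 (adjusted p = 0.163) and Ska1 at 1.65 ± 0.78 (adjusted p = 0.179), and the lowest Wapl at -0.43 ± 0.15 (adjusted p = 0.0845), Numa1 at -0.67 ± 0.21 (adjusted p = 0.0702) and Nipbl at -0.78 ± 0.33 (adjusted p = 0.143). By edgeR in Ag+Costim against Ag the highest were Kntc1 at 1.18 ± 0.71 (adjusted p = 0.295), Zwilch at 1.17 ± 0.53 (adjusted p = 0.174) and Ncapg2 at 1.01 ± 0.77 (adjusted p = 0.406), and the lowest Anapc13 at -0.25 ± 0.16 (adjusted p = 0.305), E2f5 at -0.35 ± 0.21 (adjusted p = 0.294) and Nipbl at -0.65 ± 0.33 (adjusted p = 0.229). Psrc1, which promotes spindle assembly, was thus called in both comparisons with Naive. Without Naive 5, 56 of the 110 were called higher in Ag against Naive (12.6% of all genes) and 93 in Ag+Costim against Naive (25.6%).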

How the data were processed

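RNA of 15 libraries of sorted mouse CD8+ T cells (5 Naive, 5 Ag, 5 Ag+Costim) was sequenced from poly(A) libraries. Per the labels, the authors aligned reads with HISAT2 2.1.0 to mm10, used SAMtools 1.9 and deposited estimated counts per gene and transcript from StringTie 2.1.0, not normalized, with DESeq2 1.30.1 among their tools. The deposited estimated counts were whole numbers, and entries named only by a number (0.0818% of the counts) were left out. The deposited lane table gave read counts and input amounts as the authors recorded them. The deposited FPKM values were not used here.

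CPM was computed from library totals, and TPM from transcript counts and GENCODE M21 lengths. Tests used edgeR 4.0.16 (filterByExpr, TMM, quasi-likelihood with robust fitting, 1 coefficient per group, two-sided, Benjamini-Hochberg over 17366 genes) in R 4.3.3. They were tried on simulated data with the same spread for every gene and group. The groups here differ in spread, so that trial does not show how the tests behave on them. DESeq2 1.42.0, voom with sample quality weights (limma 3.58.1), other scalings, filters, lanes, a replicate block and left-out libraries were alternatives. Members, roles and lists were chosen with earlier results of these data known. Values in every library are given for 20 fixed genes, for the 3 highest and 3 lowest members of each comparison and for members whose call differs from most of their role. Of the further genes, the 3 highest and 3 lowest are named. Cdc25c, Nde1, Anapc10 and Wapl were also named after their values were seen. The labels do not say whether libraries of a group came from separate mice, so p-values measure the spread between these libraries. In the main fit that spread was estimated over all 15 libraries together, including the group outside a comparison. In Ag vs Naive that fit called 529 genes higher and 636 lower of 17366. With the 10 libraries of that comparison alone it was 0 and 6 of 16742. The StringTie counts do not state strand, and overlapping genes cannot be separated.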

Additional observations from a re-analysis of the deposited data

Results flagged for a closer look

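Within groups of 5 libraries, a library was marked where its gap to the nearest other library, divided by the group's range, exceeded Dixon's value of 0.71, which chance does for about 1 in 20 groups. Of the 57 mitosis genes, such a library was found for 9 in the Naive group, for 0 in Ag and for 2 in Ag+Costim. In Naive all 9 were Naive 5 at the high end, and among the genes with full values these were Foxm1 at 97.0 CPM (others 6.32 to 29.5), Bub1b at 262 CPM (others 13.2 to 68.1), Espl1 at 108 CPM (others 5.49 to 29.0), Kif4 at 129 CPM (others 7.01 to 33.8) and Aspm at 111 CPM (others 4.34 to 34.3). Naive 5 also held the myeloid markers at 1003 CPM, and their part in these values was not tested. In Ag+Costim, Mki67 was low in Ag+Costim 3, at 379 CPM against 430.1 to 434 in the other libraries, and the other gene, Kif23, was at 176 CPM there against 208 to 214 CPM.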

How the results depend on the processing

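In Ag vs Naive, the 0 calls of the 57 members became 1 with DESeq2, where 1106 of 48768 genes were called higher. They became 38 with voom (1705 of 17366 genes) and 1 with the replicate block (755 of 17366). They became 50 without Ag 3 and Naive 5 together (2618 of 17263), and 0 to 55 when a library was left out. In Ag+Costim vs Ag only voom gave calls, 56 higher and 1 lower (4992 and 4977 of 17366 genes). Every left-out library gave 0. In Ag+Costim vs Naive the 50 calls became 8 with no filter on low counts (2409 of 48994 genes called higher). They became 0 with lane as a term (258 of 17366), 1 in lane 3 alone (2571 of 18287) and 2 to 55 when a library was left out. For the 110 further genes, the 4 calls in Ag vs Naive became 8 with DESeq2, where 1106 genes were called higher and 1516 lower of 48768. They became 30 with voom (1705 and 1768 of 17366) and 57 without Ag 3 and Naive 5 together (2618 and 1327 of 17263). They became 0 with no filter (49 and 159 of 48994), lane as a term (0 and 0 of 17366) or the 10 libraries alone (0 and 6 of 16742). When a library was left out they were 0 to 56. Their 0 calls in Ag+Costim vs Ag became 22 with DESeq2 (815 and 4767 of 48768) and 98 with voom (4992 and 4977 of 17366). They became 20 without Ag 3 and Naive 5 together (498 and 491 of 17263) and 0 to 23 when a library was left out. Their 91 calls in Ag+Costim vs Naive became 60 with no filter (2409 and 1749 of 48994) and 6 with lane as a term (258 and 685 of 17366). They became 51 in lane 3 alone (2571 and 3772 of 18287) and 34 to 95 when a library was left out. The cause was not tested. Other scalings kept all counts within 1.5-fold, although library totals alone moved the all-gene median of log2 fold changes in Ag+Costim vs Naive from -0.08 to -0.23.

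The sign of 2 members turned. Smc4 in Ag vs Naive was -0.103 without Ag 1 and -0.081 without Ag 4, and -0.103 to 0.25 over all left-out libraries. In Ag+Costim vs Ag it was 0.12 with no filter and -0.277 to 0.064 over left-out libraries, and in Ag+Costim vs Naive it was 0.15 with no filter, 0.012 without Ag 3 and Naive 5 together and -0.057 to 0.093 over left-out libraries. Pttg1 in Ag+Costim vs Ag was -0.029 with library totals alone and -0.075 to 0.214 over left-out libraries. The 25 named members gave 500 values in Ag+Costim vs Naive, of which 182, from 18 members, lost their call. The 500 include members uncalled in the main fit, which had no call to lose, so fewer values were at risk. None of the called members changed sign. Mean sums moved from 4314 to between 2566 and 5017 CPM in Naive, from 8928 to between 7728 and 10259 in Ag and from 14898 to between 14674 and 15201 in Ag+Costim. Motif shares in 150 bases stayed within their Wilson intervals.

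Whether replicate numbers paired the libraries was not settled: same-numbered libraries' deviations correlated from -0.324 to 0.470. Between Ag and Naive the correlations were 0.421, 0.470 and 0.405 for replicates 1, 4 and 5, but -0.118 and -0.324 for replicates 2 and 3. With the replicate block 1, 0 and 56 members were called higher in the 3 comparisons, where 755, 0 and 4066 of 17366 genes were. In that edgeR fit 50, 18 and 56 members had an unadjusted p below 0.05, as did 5373, 4131 and 9546 genes. Without the block it was 3, 0 and 55 members, and 4980, 4647 and 9672 of 17366 genes. Depth was not a limit on detection, since every member had counts in every library.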
